A study of Homo sapiens with 16 samples.

Results

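The regions described here carried an H3K27ac peak in both cPt-sensitive ovarian cancer lines, A2780 and CAOV4, and in neither of the cPt-resistant lines made from them, A2780cis and CAOV4cis. To find them, autosomal peaks of these 4 H3K27ac lists were merged wherever they shared at least 1 bp, which gave 48131 merged regions. A peak was listed in A2780 and in CAOV4 at 9189 of them. Of these, 428 had no peak in A2780cis and none in CAOV4cis, which is 4.66% of the 9189 regions and 0.889% of all merged regions. These 428 are called lost regions in the following, in the sense that a peak is listed in the sensitive lines and not in the resistant lines. They were thus chosen by whether a peak was listed in each of the 4 lists, and that state is a description and not a finding.

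H3K27ac, acetylation of lysine 27 of histone H3, marks active promoters and enhancers, and stretches that carry it over a long distance often lie at genes that define a cell's identity. H3K9ac is acetylation of another lysine on the same histone tail, is found mostly at active promoters and at strong enhancers, and commonly lies beside H3K27ac. MBD3 is a scaffold subunit of NuRD, a complex that joins a nucleosome remodeler with histone deacetylases and thereby can remove acetyl groups from chromatin. cPt (cisplatin) forms adducts with DNA and is a mainstay of treatment for epithelial ovarian cancer, where tumors often return in a resistant form.

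A2780 is a human epithelial ovarian cancer line used without treatment, and A2780cis is its resistant derivative, labelled as cisplatin treated. CAOV4 is another human ovarian cancer line used without treatment, and CAOV4cis is its resistant derivative, obtained by growing CAOV4 in rising concentrations of cPt. Both resistant lines were cultured with 1 µM cPt, so a stable difference of a resistant line and an effect of the cPt in its medium cannot be told apart. In the remaining samples, A2780 cells expressed 1 of 2 inducible shRNAs against *MBD3*, shMBD3.26 or shMBD3.232, for 1 week and GFP-positive cells were sorted. H3K27ac was profiled by ChIP-seq in all 6 kinds of cells and H3K9ac in A2780 and A2780cis, on mononucleosomes released with MNase and mixed with 5% of *D. melanogaster* mononucleosomes as a spike-in. Untransduced A2780 served as the reference for the shRNAs, so effects of transduction, sorting and doxycycline cannot be told apart from those of the knockdown, and cells with a control shRNA were not analysed here.

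Each condition was represented by 1 library. No difference between conditions has a replicate check, no test was run, and the intervals given are 95% Wilson intervals of a share or binomial intervals of a median, which cover counting error only. The 8 lists held between 15058 and 27932 autosomal peaks, with median widths between 1600 and 2800 bp. They give the start and end of each peak on a grid of 200 bp and no height, and sequencing depth is unknown. No list held a peak on an autosome beyond chromosome 19, and on each of chromosomes 1 to 12 the lists stopped before the human chromosome does, with the last peak at 197 Mb on chromosome 1, 181 Mb on chromosome 2, 160 Mb on chromosome 3 and 121 Mb on chromosome 12. Lost regions outside the covered parts could not be found, and values by chromosome hold for the covered part. Why the lists stop there was not tested.

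The shRNAs are the only designed sequences of the series. They are shown because the H3K27ac state of lost regions under each of them is described below and was not used to choose the regions. The study's guide list gives both as 22 bases, written here as listed, with bases 2 to 8 in capitals. These bases are the seed only where the listed sequence is the guide strand. Which strand of *MBD3* each matches was not checked.
shMBD3.26: aACAAGGTcaagagcgacccgc
shMBD3.232: tTGCTCATcagcatcttgcccg
The stretches in capitals differ from each other.

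Losses in the resistant lines overlapped. Of the 9189 regions with a peak in both sensitive lines, 1106 had none in A2780cis, or 12.0%, and 1655 had none in CAOV4cis, or 18.0%. The 428 lost regions were 38.7% (35.9% to 41.6%) of those without a peak in A2780cis and 25.9% (23.8% to 28.0%) of those without a peak in CAOV4cis. Where A2780cis kept its peak, CAOV4cis had none at 15.2% (14.4% to 16.0%) of regions. Width moved with both losses, and narrow peaks more often had no partner. When the CAOV4 peaks covered up to 1 kb, CAOV4cis had no peak at 76.9% (71.0% to 81.9%) of regions without a peak in A2780cis and at 48.1% (44.2% to 51.9%) of those with one. For 2 to 5 kb these shares were 28.9% (24.5% to 33.6%) and 13.4% (12.4% to 14.6%), and for over 5 kb they were 3.80% (2.08% to 6.86%) and 1.97% (1.49% to 2.58%). These shares rest on the lists that chose the regions and are given as a description. A region with an A2780cis peak also spans that peak, so it has more room to hold a CAOV4cis peak at the same CAOV4 width. The merged median was 2400 bp for regions lost in both and 4600 bp for those lost in CAOV4cis only. The part of this in the overlap of losses was not tested. The remaining regions with a peak in both sensitive lines were 678 lost in A2780cis only, 1227 lost in CAOV4cis only and 6856 kept in all 4 lists. In the opposite direction, 287 merged regions had a peak in both resistant lines and in neither sensitive line.

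Lost regions were narrow. Their merged width had a median of 2400 bp (2200 to 2600 bp) and ranged from 400 to 95200 bp, and together they spanned 1.51 Mb. In A2780, their peaks covered a median of 1600 bp (1400 to 1800 bp) with quartiles of 800 and 2650 bp, compared with 4800 bp (4800 to 5000 bp) at regions kept in all lists. In CAOV4, the median was 1400 bp (1200 to 1400 bp) with quartiles of 600 and 2200 bp, compared with 4000 bp (3800 to 4000 bp) at kept regions. These widths sum all peaks of a list within a region, and kept regions can be joined through peaks of a resistant line. Over the whole lists, the median individual peak was 2200 bp in A2780 and in CAOV4. The part of this joining in the difference was not tested. Regions lost in a single resistant line were narrow in the sensitive parent of that line and wider in the other sensitive line. Regions lost in A2780cis only had a median of 1800 bp in A2780 and 3800 bp in CAOV4, and those lost in CAOV4cis only had 3200 bp in A2780 and 1800 bp in CAOV4. Among regions with up to 1 kb covered in A2780, 19.1% (16.4% to 22.1%) were lost in both resistant lines. This share was 11.6% (9.91% to 13.6%) for 1 to 2 kb, 3.16% (2.63% to 3.79%) for 2 to 5 kb and 1.09% (0.808% to 1.48%) for over 5 kb.

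Most lost regions were simple. A single peak in each sensitive line made up 416 of the 428, and at 273 of them, or 63.8% (59.1% to 68.2%), one line's peak lay wholly within the other's. The bases shared by A2780 and CAOV4 had a median of 600 bp (600 to 800 bp). At 90 regions, or 21.0% (17.4% to 25.1%), the lines shared a single 200-bp step of the grid. A2780 peaks were the wider ones at 236 regions, CAOV4 peaks at 170, and both covered the same length at 22.

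**Figure D1:**
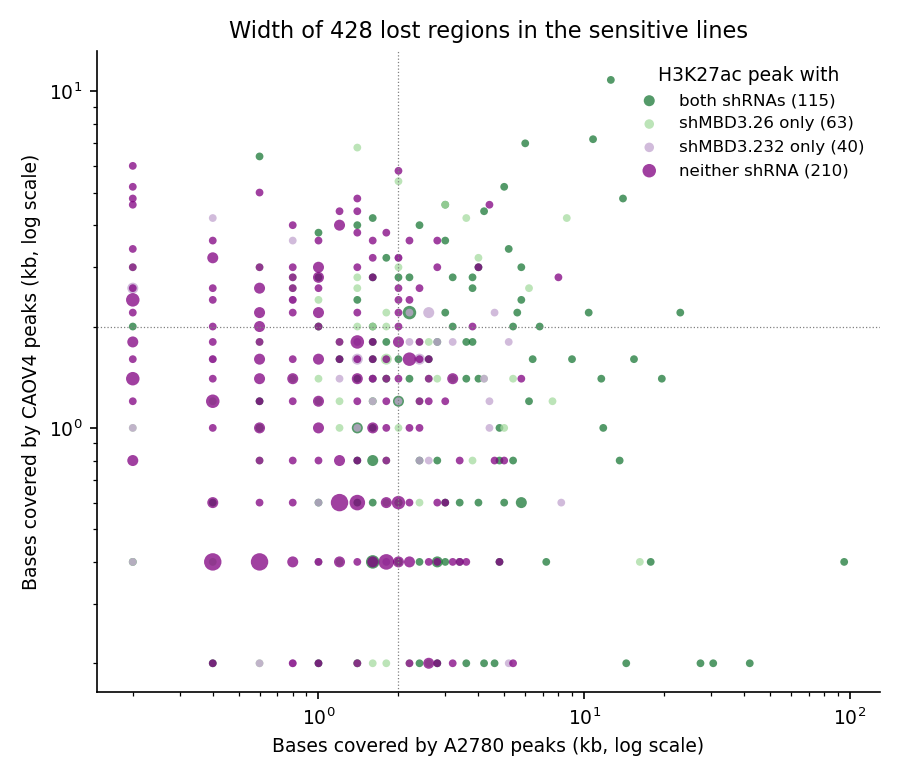
Bases covered by A2780 peaks (x axis, kb, log scale) and by CAOV4 peaks (y axis, kb, log scale) at each of the 428 lost regions; the area of a point grows with the number of regions at the same widths, colors give the shRNA state and dotted lines mark 2 kb. The 41 regions with over 2 kb in both lines fill the upper right corner, and the widest A2780 peaks lie at the bottom right, over 0.2 to 0.4 kb in CAOV4.

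The plot of A2780 against CAOV4 widths shows that regions wide in one sensitive line were seldom wide in the other. Of the 41 lost regions with over 5 kb in A2780, 16 had at most 1 kb in CAOV4 and 3 had over 5 kb. Of the 10 with over 5 kb in CAOV4, 3 had at most 1 kb in A2780. Only 41 of the 428 had over 2 kb in both lines, or 9.58% (7.14% to 12.7%), and 196 had at most 2 kb in both.

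Among the 10 lost regions with the most covered bases, 5 were A2780 domains with at most 0.4 kb in CAOV4. The widest, chr13:91727801-91823000 (GRCh37, as for all coordinates below), had 95.2 kb of H3K27ac in A2780, 0.4 kb in CAOV4 and none in A2780cis or CAOV4cis. H3K9ac covered 83.6 kb of it in A2780 and none in A2780cis, and H3K27ac covered 94 kb with shMBD3.26 and 92.6 kb with shMBD3.232. Its nearest peaks in the resistant lines were 176.6 kb away in A2780cis and 176.2 kb away in CAOV4cis. The other 3 lists of A2780 cells thus covered most of it, and a peak of 0.4 kb in CAOV4 is what brought it into the set.

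The region chr7:18525001-18567000 followed, with 42 kb of H3K27ac in A2780, 0.2 kb in CAOV4, 20.4 kb of H3K9ac in A2780, 39 kb with shMBD3.26 and 40.4 kb with shMBD3.232. At chr5:92089601-92120200, H3K27ac covered 30.6 kb in A2780, 0.2 kb in CAOV4, 26.2 kb with shMBD3.26 and 29 kb with shMBD3.232, and H3K9ac covered 21.4 kb in A2780. The values at chr1:192410001-192437400 were 27.4 kb in A2780, 0.2 kb in CAOV4, 22.4 kb with shMBD3.26 and 22.8 kb with shMBD3.232, beside 14.6 kb of H3K9ac in A2780. In these 3 domains as well, no H3K9ac peak was listed in A2780cis, and the CAOV4 evidence was a single step of the grid. A domain of the same kind at chr11:56879001-56896800 had 17.8 kb in A2780 and with each shRNA, 0.4 kb in CAOV4 and only 0.4 kb of H3K9ac in A2780.

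The other 5 of the 10 had 1.4 to 10.8 kb in CAOV4. At chr14:43989601-44012600, H3K27ac covered 23 kb in A2780, 2.2 kb in CAOV4, 20.2 kb with shMBD3.26 and 18 kb with shMBD3.232, with 8.6 kb of H3K9ac in A2780. At chr3:101947401-101967000 it covered 19.6 kb in A2780, 1.4 kb in CAOV4, 18.6 kb with shMBD3.26 and 11.6 kb with shMBD3.232, with 5 kb of H3K9ac. Neither had H3K9ac in A2780cis, and the nearest A2780cis peaks were 1352.8 and 377.6 kb away.

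The region with the most H3K27ac in CAOV4, chr17:42615401-42628000, was also the widest region shared by the sensitive lines. It had 12.6 kb in A2780 and 10.8 kb in CAOV4, and the whole CAOV4 peak lay within the A2780 peak. H3K9ac covered 10.6 kb in A2780 and none in A2780cis, and H3K27ac covered 12.6 kb with shMBD3.26 and 5.6 kb with shMBD3.232. Peaks of the resistant lines were close by, 1.4 kb away in A2780cis and 0.6 kb away in CAOV4cis. The region chr7:25720201-25735200 had 10.8 kb in A2780 and 7.2 kb in CAOV4, of which 3 kb were shared, 8.6 kb of H3K9ac in A2780, 12.4 kb with shMBD3.26 and 10.2 kb with shMBD3.232. At chr9:116262001-116277200 the lines had 14 kb and 4.8 kb, of which 3.6 kb were shared, with 12 kb of H3K9ac in A2780, 15 kb with shMBD3.26 and 13.6 kb with shMBD3.232. No H3K9ac was listed in A2780cis at these regions either.

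The 10 lost regions with the most H3K9ac in A2780 and none in A2780cis held 8 of these domains and 2 more. At chr4:143320601-143329200, H3K9ac covered all 8.6 kb of the A2780 peak, CAOV4 had 4.2 kb, shMBD3.26 left 6 kb and shMBD3.232 none, and the nearest A2780cis peak was 775.4 kb away. At chr4:4853201-4865000, A2780 had 11.8 kb of H3K27ac and 7.4 kb of H3K9ac, CAOV4 had 1 kb, and the shRNAs had 11.4 and 11.2 kb.

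H3K9ac was listed at few lost regions and, where present, mostly in the sensitive line alone. A peak was listed in A2780 at 124 of the 428, or 29.0% (24.9% to 33.4%), compared with 77.3% of all regions with a peak in both sensitive lines and 47.5% of all regions with a peak in A2780. In A2780cis a peak was listed at 35, or 8.18% (5.94% to 11.2%), compared with 73.9% of all such regions. The mark was in A2780 only at 116 lost regions (27.1%, against 11.6% of all), in A2780cis only at 27 (6.31%, against 8.25%), in both at 8 (1.87%, against 65.7%) and in neither at 277 (64.7%, against 14.5%). Regions lost in A2780cis only had the mark in A2780 only more often, at 249 of 678 or 36.7% (33.2% to 40.4%). Their merged regions were wider, with a median of 6300 bp against 2400 bp, and so had more room for a peak. At the A2780-covered bases, a look-up added after seeing the data, 31.1% (27.8% to 34.7%) of them had H3K9ac in A2780. For lost regions this share was 27.6% (23.6% to 32.0%), and these intervals overlapped. The 8 regions with H3K9ac in both were 6.45% of those with the mark in A2780 and 22.9% of those with it in A2780cis. Since H3K9ac was measured with another antibody in the same kinds of cells, it was not part of how the regions were chosen. The A2780cis H3K9ac list held the fewest peaks of all lists, 15058 against 22438 in A2780. Its peaks covered 53.6 Mb, against 54.5 Mb for H3K9ac in A2780.

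The share with H3K9ac in A2780 was 15.7% when the mark had to cover 50% of the A2780 bases and 48.8% at the 41 regions with over 2 kb in both sensitive lines. It followed width. Of lost regions with up to 1 kb covered in A2780, 20 of 139 had H3K9ac in A2780 (14.4%, 9.51% to 21.2%). The count was 40 of 136 for 1 to 2 kb (29.4%, 22.4% to 37.6%), 37 of 112 for 2 to 5 kb (33.0%, 25.01% to 42.2%) and 27 of 41 for over 5 kb (65.9%, 50.5% to 78.4%). In A2780cis, 2 of the 41 widest had the mark.

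Merged regions of the other classes are wider because they include the peaks of a resistant line. H3K9ac was therefore also looked up only at the bases that A2780 peaks cover, an alternative added after seeing the data. With up to 1 kb covered, 11.5% (7.21% to 17.9%) of lost regions, 13.7% (9.70% to 19.0%) of regions lost in A2780cis only and 18.6% (14.3% to 23.8%) of kept regions had H3K9ac in A2780, and these intervals overlapped. For 2 to 5 kb, the shares were 33.0% (25.01% to 42.2%), 37.6% (31.3% to 44.3%) and 82.95% (81.5% to 84.3%), so that at this width both classes without a peak in A2780cis had H3K9ac less often in the sensitive line than kept regions. In A2780cis, H3K9ac was at 14.3% (8.99% to 22.0%) of lost regions of 2 to 5 kb, 4.76% (2.61% to 8.54%) of regions lost in A2780cis only and 84.1% (82.7% to 85.5%) of kept regions, and none of these intervals overlapped.

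Lost regions with H3K9ac in A2780cis more often had an A2780cis H3K27ac peak nearby than the other lost regions. Of the 35 with that H3K9ac, 25 had an A2780cis H3K27ac peak within 5 kb (71.4%, 54.9% to 83.7%), compared with 138 of the other 393 (35.1%, 30.6% to 40.0%). The regions in this and the next paragraph were chosen after their values were seen. At chr19:17957601-17962200, A2780 had 4.2 kb and CAOV4 4.4 kb of H3K27ac, and H3K9ac covered 3.2 kb in A2780cis and none in A2780, with an A2780cis H3K27ac peak 2.2 kb away. At chr7:130010401-130016000, H3K27ac covered 5 kb in A2780 and 5.2 kb in CAOV4, and H3K9ac covered 1.8 kb in A2780 and 1.2 kb in A2780cis although the nearest A2780cis H3K27ac peak was 45 kb away. At chr5:68926201-68931600, H3K9ac covered 4.4 kb in A2780 and 1.6 kb in A2780cis, and H3K27ac 5.4 kb in A2780, 0.8 kb in CAOV4 and none within 66.8 kb in A2780cis.

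Regions wide in CAOV4 had no H3K9ac measurement of their own line. At chr17:35273401-35280200, CAOV4 had 6.8 kb of H3K27ac and A2780 1.4 kb, with 3 kb of H3K9ac in A2780. At chr16:4436601-4444400, A2780 had 6 kb and CAOV4 7 kb, of which 5.2 kb were shared, beside 2.8 kb of H3K9ac in A2780, 3.2 kb of H3K27ac with shMBD3.26 and 2.8 kb with shMBD3.232.

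**Figure D2:**
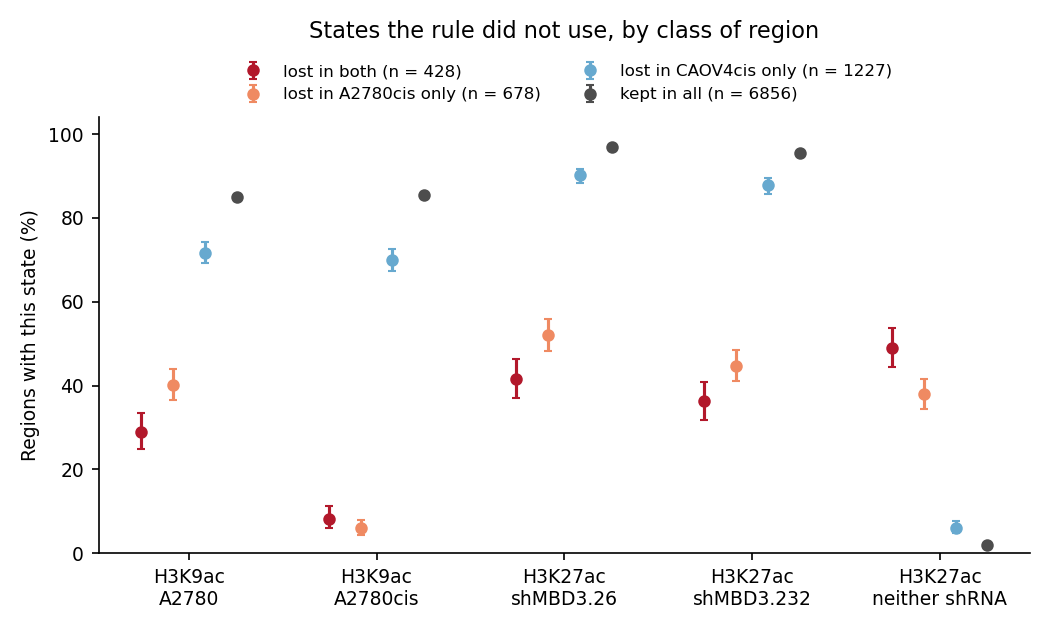
Share of regions (y axis, %) with an H3K9ac peak in A2780 or A2780cis, or an H3K27ac peak with each shRNA or with neither, by class of region among those with a peak in A2780 and CAOV4; points are shares and bars 95% Wilson intervals. Lost regions have H3K9ac in A2780 at 29.0% and no peak with either shRNA at 49.1%, compared with 40.1% and 37.9% of regions lost in A2780cis only and 84.9% and 1.93% of regions kept in all. Merged regions lost in A2780cis only are wider (median 6300 bp) than lost regions (2400 bp). Looked up only at the A2780-covered bases, lost regions have 27.6% and 49.8%. Regions lost in A2780cis only then have 31.1% and 45.1%, and the intervals of these classes overlap.

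The H3K27ac lists of A2780 cells with an *MBD3* shRNA were not used to choose the regions and come from the sensitive line. A peak was listed with shMBD3.26 at 178 of the 428 lost regions, or 41.6% (37.0% to 46.3%), against 90.1% of all regions with a peak in both sensitive lines and 61.2% of all with a peak in A2780. With shMBD3.232 it was listed at 155, or 36.2% (31.8% to 40.9%), against 88.0%. Both shRNAs had a peak at 115 (26.9%, 22.9% to 31.3%, against 85.5%) and neither at 210 (49.1%, 44.4% to 53.8%, against 7.33%). Over all regions with a peak in A2780, the shares with both and with neither were 51.6% and 32.9%. The shares at lost regions depended on which peaks were counted. With looked-up peaks required over 50% of the A2780 bases they were 15.9% with both and 61.2% with neither, and with over 2 kb covered in both sensitive lines 58.5% and 19.5%, a setting added after seeing the data. A peak with shMBD3.26 only was listed at 63 (14.7%, against 4.67%) and with shMBD3.232 only at 40 (9.35%, against 2.52%). The 115 regions with both were 64.6% of those with shMBD3.26 and 74.2% of those with shMBD3.232. Whether the missing peaks reflect the knockdown or how often a peak recurs between libraries of A2780 was not tested, since no second library of untransduced A2780 was analysed here.

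The shRNA state also followed width. No peak with either shRNA was listed at 97 of 139 lost regions with up to 1 kb in A2780 (69.8%, 61.7% to 76.8%), 69 of 136 with 1 to 2 kb (50.7%, 42.4% to 59.0%), 41 of 112 with 2 to 5 kb (36.6%, 28.3% to 45.8%) and 3 of 41 with over 5 kb (7.32%, 2.52% to 19.4%). Where a peak was listed, it covered a median of 1600 bp with either shRNA, and its length was a median of 75% of the A2780 bases with shMBD3.26 and 83.2% with shMBD3.232. Summed over the lost regions, A2780 had 1.19 Mb of H3K27ac, shMBD3.26 had 0.625 Mb and shMBD3.232 had 0.592 Mb. The shRNA sums were thus 52.6% and 49.8% of the A2780 sum. They were 58.2% and 58.8% at regions lost in A2780cis only, and 80.4% and 86.2% at kept regions. All these regions were required to have a peak in A2780 and not with an shRNA, which favors the A2780 sum. Merged regions of the other classes were also wider, which leaves more room for shRNA bases outside the A2780 peaks.

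At the A2780-covered bases, lost regions had fewer shRNA peaks than kept regions in every width class. With up to 1 kb covered, a shMBD3.26 peak was listed at 18.0% (12% to 25%) of lost regions, 18.4% (13.8% to 24.2%) of regions lost in A2780cis only, 60.0% (51.2% to 68.2%) of those lost in CAOV4cis only and 61.7% (55.5% to 67.4%) of kept regions. For 2 to 5 kb, these shares were 49.1% (40.0% to 58.2%), 57.6% (50.9% to 64.1%), 94.5% (92.2% to 96.1%) and 97.7% (97.0% to 98.2%). Above 5 kb they were 85.4% (71.6% to 93.1%), 88.5% (80.1% to 93.6%), 97.1% (94.8% to 98.4%) and 99.6% (99.3% to 99.8%). The split thus ran between regions with and without a peak in A2780cis, and the intervals of lost regions and of regions lost in A2780cis only overlapped in every width class. For shMBD3.232, the shares at 2 to 5 kb were 48.2% (39.2% to 57.4%) at lost regions, 51.0% (44.2% to 57.6%) at those lost in A2780cis only, 92.2% (89.7% to 94.2%) at those lost in CAOV4cis only and 96.8% (96.1% to 97.4%) at kept regions.

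**Figure D3:**
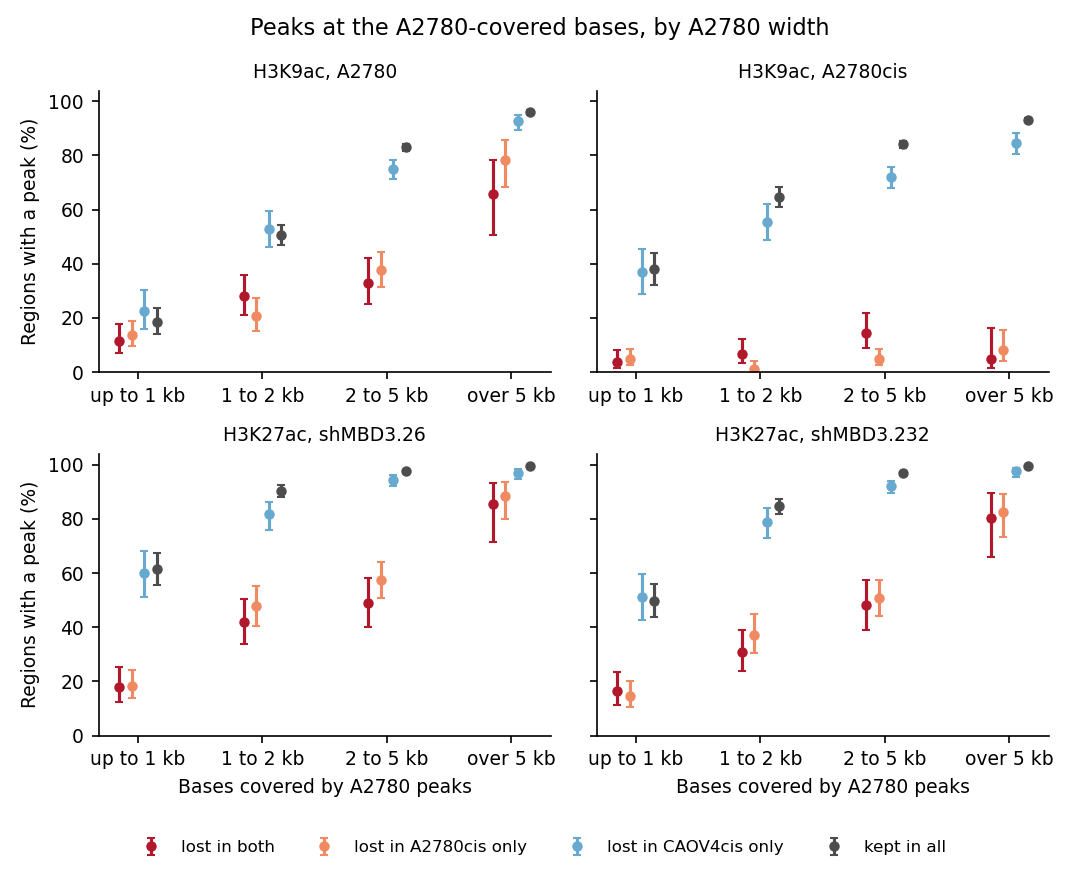
Share of regions with a peak at the bases covered by A2780 peaks (y axis, %) for 4 lists the rule did not use, by the length of those bases (x axis) and class of region; bars are 95% Wilson intervals. The intervals of lost regions and of regions lost in A2780cis only overlap in each width class, except for H3K9ac in A2780cis at 2 to 5 kb, and for both shRNAs below those that A2780cis kept, from 18.0% against 61.7% up to 1 kb to 85.4% against 99.6% over 5 kb with shMBD3.26.

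H3K9ac and the shRNA state went together over all lost regions, though not in every width class. Of the 124 with H3K9ac in A2780, 58 had a peak with both shRNAs (46.8%, 38.2% to 55.5%), compared with 57 of the 304 without it (18.8%, 14.8% to 23.5%). Of the 115 regions with both shRNA peaks, 50.4% (41.4% to 59.4%) had H3K9ac in A2780, and of the 210 with neither, 17.6% (13.1% to 23.3%). Both states also moved with width. Within 2 to 5 kb, the shares with both shRNAs were 48.6% (33.4% to 64.1%) with H3K9ac and 30.7% (21.4% to 41.8%) without, and these intervals overlapped. Up to 1 kb they were 2 of 20 with H3K9ac and 10 of 119 without, and neither shRNA had a peak at 80% (58.4% to 91.9%) and 68.1% (59.2% to 75.8%), so that the pairing was not seen in the narrowest regions. Above 5 kb, 26 of 27 regions with H3K9ac and 4 of 14 without had a peak with both.

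**Figure D4:**
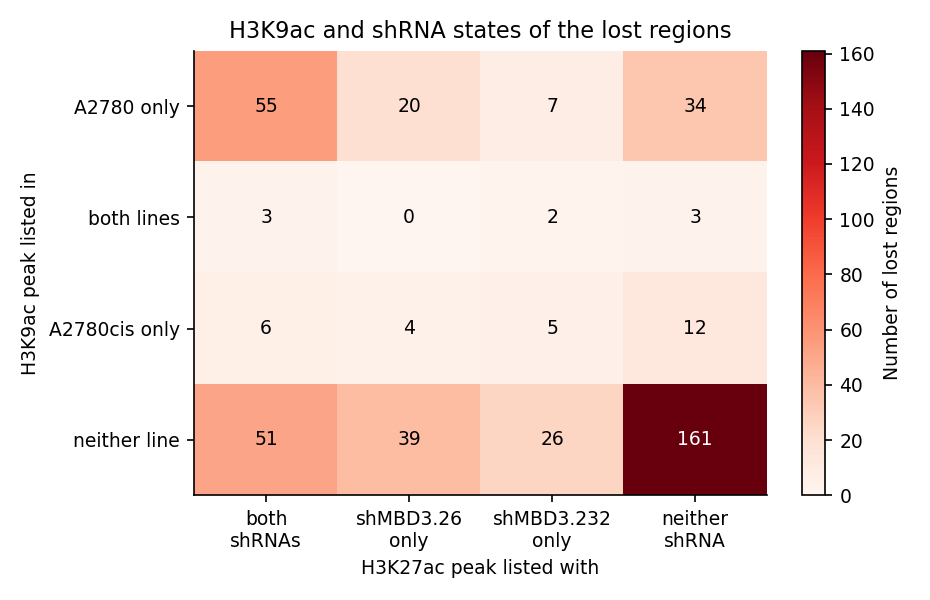
Number of lost regions (color and printed count) by the lines with an H3K9ac peak (rows) and by the shRNAs with an H3K27ac peak (columns), 428 in all. The largest cell holds 161 regions with no peak in any of these 4 lists, and the next 55 regions with H3K9ac in A2780 only and H3K27ac with both shRNAs.

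At 161 lost regions, or 37.6% (33.2% to 42.3%, against 4.91% of all regions with a peak in both sensitive lines), none of the 4 other lists had a peak, so the A2780 peak was seen in a single library of that line. The same held at 27.2% of all regions with a peak in A2780 and at 27.3% (24.1% to 30.8%) of regions lost in A2780cis only. Merged regions of that class were wider, with a median of 6300 bp against 2400 bp, and so had more room for a peak. The 161 included 78 of the 139 lost regions with up to 1 kb in A2780 (56.1%, 47.8% to 64.1%) and 3 of the 41 with over 5 kb. At 55 regions, or 12.9% (10.01% to 16.4%, against 8.56%), H3K9ac was in A2780 and not in A2780cis and H3K27ac was listed with both shRNAs, so that every A2780 list had a peak and neither A2780cis list did. Regions lost in A2780cis only, which were wider when merged, had this state more often, at 123 of 678 or 18.1% (15.4% to 21.2%), although these intervals overlapped. Of these 55, 25 had over 5 kb in A2780.

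The widest lost regions without an shRNA peak had no counterpart in H3K9ac either, with 1 exception. At chr5:70866201-70875400, A2780 had 8 kb and CAOV4 2.8 kb, and nothing was listed in the other lists. The same held at chr17:36941601-36947400 with 5.8 kb in A2780 and 1.4 kb in CAOV4, at chr12:49057801-49063200 with 5.4 and 0.2 kb, and at chr6:45294801-45299800 with 5 and 0.8 kb. At chr6:42536201-42541000, with 4.8 kb in A2780 and 0.4 kb in CAOV4, H3K9ac covered 0.6 kb in A2780. In 4 of these 5, a peak of each resistant line lay within 10 kb, whereas the 5 widest with both shRNAs, which are the domains on chromosomes 13, 7, 5, 1 and 14 described above, had their nearest A2780cis peak 16 to 1352.8 kb away.

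Many lost regions lay next to a peak the resistant lines did have. The median distance from a lost region to the nearest peak was 8.9 kb (7.2 to 11.4 kb) in A2780cis and 7.4 kb (6.2 to 9.4 kb) in CAOV4cis. Regions lost in A2780cis only were 11.6 kb (10.2 to 14 kb) from the nearest A2780cis peak, and those lost in CAOV4cis only 19.4 kb (17.6 to 21.4 kb) from the nearest CAOV4cis peak. The lower quartile of the distance to A2780cis was 2.95 kb for lost regions and 4.8 kb for those lost in A2780cis only. To CAOV4cis it was 2.8 kb for lost regions and 6.7 kb for those lost in CAOV4cis only. A peak of at least 1 resistant line was within 1 kb of 65 lost regions (15.2%, 12.1% to 18.9%) and within 5 kb of 227 (53.04%, 48.3% to 57.7%). At these regions the lists do not tell a lost peak from one whose boundary moved. Isolated ones were fewer, with 19 of the 428 over 100 kb from any resistant peak, and the largest distance to A2780cis was 3076.8 kb.

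At the threshold, 11 lost regions touched a peak of a resistant line with 0 bp between them. One of these, chr1:150364001-150366800, had 2.8 kb in A2780 and 0.2 kb in CAOV4, chr3:58005401-58009600 had 1.6 and 4.2 kb, both next to an A2780cis peak, and chr4:6952801-6959200 had 0.6 and 6.4 kb next to a CAOV4cis peak. Among the regions with the smallest overlap of the sensitive lines, 200 bp, were chr1:10001-10400, chr1:462201-463600 and chr1:3621601-3623000, where A2780 had 0.2, 0.2 and 1.4 kb and CAOV4 0.4, 1.4 and 0.2 kb. Just outside, a peak of 0.2 kb in CAOV4cis kept out chr1:154229401-154231200 with 1 and 1.4 kb, and one of 0.2 kb in A2780cis kept out chr2:85620001-85626400 with 0.2 and 6.4 kb and chr7:64973001-64974400 with 1 and 0.8 kb. Widths just inside and just outside the threshold overlapped.

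Few lost regions lay close together. Joining those within the distance often used to stitch clustered enhancers gave 417 groups, of which 406 held 1 region and 11 held 2. The pair with the most covered bases, chr10:103534801-103551600, had 4.2 kb in A2780 and 3.6 kb in CAOV4, with 0.2 kb of H3K9ac in A2780 and 0.2 kb with shMBD3.232. The next, chr1:27807201-27824200, had 5.4 and 2.2 kb, with 1.2 kb each of H3K9ac in A2780 and of H3K27ac with either shRNA. At chr17:42205601-42212400 (2.2 and 4.4 kb) only H3K9ac in A2780 was listed besides, over 0.8 kb, and at chr16:53789601-53801000 (5.2 and 1 kb) nothing was. The pair at chr2:114348001-114357200 had 2 and 4 kb, 2.2 kb of H3K9ac in A2780 and 1.8 kb with shMBD3.26. None of these 5 pairs had H3K9ac in A2780cis. The regions next in order to a lost region, among those with a peak in both sensitive lines, gave 853 neighbour positions. Of these positions, 64 held a region also lost in both resistant lines, or 7.50% (5.92% to 9.47%), and 594 held a region kept in all lists, or 69.6% (66.5% to 72.6%). Next to kept regions, 4.34% (4.01% to 4.70%) of positions held a region lost in both. An adjacent pair of lost regions counts from each side, and a region can be a neighbour more than once, so these intervals are too narrow.

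**Figure D5:**
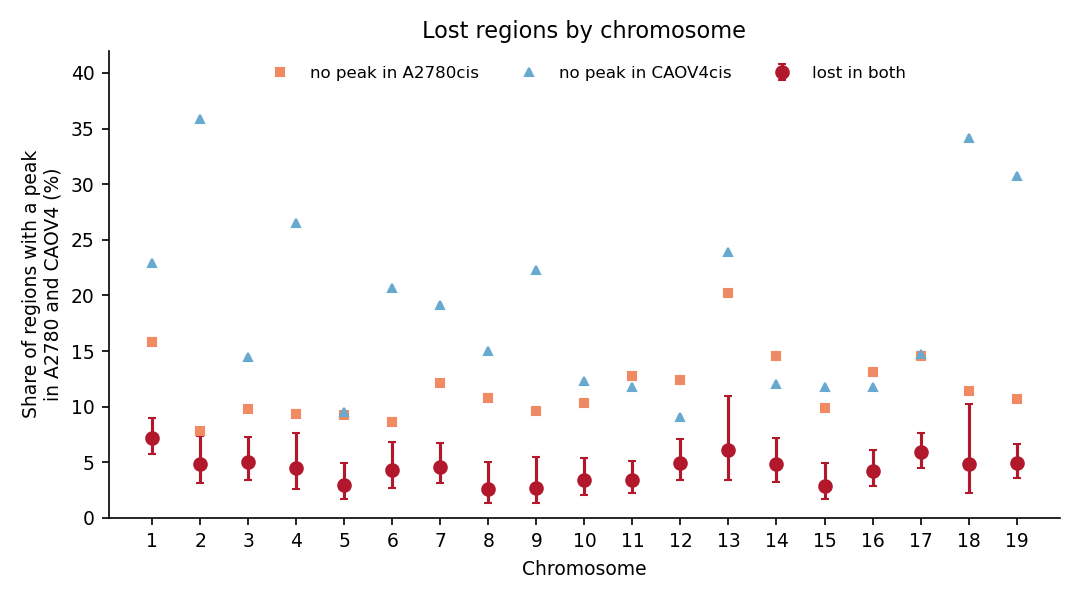
Share of regions with a peak in A2780 and CAOV4 (y axis, %) that were lost in both resistant lines, with 95% Wilson intervals, and the shares with no peak in A2780cis or in CAOV4cis, by chromosome (x axis). The share lost in both runs from 2.61% on chromosome 8 to 7.16% on chromosome 1, while the share lost in CAOV4cis reaches 35.9% on chromosome 2.

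The share of lost regions by chromosome was highest on chromosome 1, with 71 of 991 regions (7.16%, 5.72% to 8.94%), and lowest on chromosome 8, with 8 of 307 (2.61%, 1.33% to 5.06%). Chromosome 13 had 10 of 163 (6.13%, 3.37% to 10.9%). On that chromosome the A2780cis lists were short, with 306 H3K27ac peaks against 657 in A2780 and 102 H3K9ac peaks against 523, and 20.2% of its regions had no peak in A2780cis. The widest lost region lies on this chromosome, and the part of its short A2780cis lists in that loss was not tested. CAOV4cis had no peak at 35.9% of regions on chromosome 2, 34.1% on chromosome 18 and 30.7% on chromosome 19, where lost regions were 4.80%, 4.88% and 4.89%. Over windows of 10 Mb, the most lost regions lay between 40 and 50 Mb of chromosome 17, with 13 of 204 regions or 6.37%, which is near the share on the whole chromosome of 5.88%. Among the 10 windows with the most lost regions, the highest share was that of 110 to 120 Mb on chromosome 1, with 9 of 49 regions or 18.4%, compared with 7.16% on the whole chromosome, a window chosen after its values were seen.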

How the data were processed

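ChIP-seq reads were aligned with Bowtie2 on the Galaxy platform by the authors, who quantile normalized the data and called peaks per sample with MACS2. The build was GRCh37/hg19, per the submitters' processing notes. The deposited peak lists hold coordinates (chromosome, start and end) and a score that is 0 in every row, so the score was not used and peaks were compared by presence and width. Input libraries were not analysed here. The lost regions and the lists compared with them were chosen with earlier results of these data known. Peaks were merged where they shared 1 bp or more, and widths are the bases covered by a list within a region. An H3K9ac or shRNA peak counted when it shared 1 bp or more with the region. Named were the 10 most covered regions, the 10 with the most H3K9ac in A2780 and none in A2780cis, the 5 widest in A2780 with neither and with both shRNAs, the 5 most covered groups of regions no more than 12.5 kb apart, and 3 regions at each threshold; other named regions were chosen after their values were seen. Shares have 95% Wilson intervals and medians exact binomial order-statistic intervals, for counting error only. Read depth is unknown. Alternatives varied the overlap, distance, width, list length, chromosomes and looked-up bases. Genes, distances to a TSS, motifs, the sequence of regions and cell line markers need an annotation of the build and were not analysed here. Merging and look-up were tested on simulated data. Python 3.11.15, numpy 2.4.6, pandas 2.3.3, SciPy 1.17.1 and matplotlib 3.10.9 were used.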

Additional observations from a re-analysis of the deposited data

How the results depend on the processing

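The alternatives below changed 1 choice at a time, with 9 set at the outset and 4 added after seeing the data. Of 108 recomputed values, 60 stayed within counting error of the reported value and 48 did not. H3K9ac was at a larger share of lost regions in A2780 than in A2780cis in all 14 settings with these shares, the reported one included, and the shMBD3.26 share exceeded that of shMBD3.232 in 13 of 14, the exception being sensitive peaks over 2 kb. With no resistant peak within 5 kb, 201 regions were left, of which 3.98% had H3K9ac in A2780cis and 46.8% a peak with shMBD3.26. With sensitive peaks over 2 kb, 40 regions were left, with medians of 3800 bp in A2780 and 3000 bp in CAOV4. H3K9ac was then at 47.5% in A2780 and 12% in A2780cis, and H3K27ac at 67.5% with shMBD3.26, 70.0% with shMBD3.232, 57.5% with both and 20.0% with neither. With over 2 kb covered in both lines, an added setting, these values were 41 regions, 3800 and 3000 bp, 48.8% and 12.2%, 70.7%, 68.3%, 58.5% and 19.5%. With the wider 50% of each list they were 232 regions, 3400 and 3200 bp, 46.6% and 13.8%, 63.8%, 45.7%, 36.2% and 26.7%. With the widest 20245 peaks of each list, there were 272 regions with medians of 2000 and 1600 bp, H3K9ac in A2780 at 36.4%, and H3K27ac at 51.5%, 46.3%, 36.0% and 38.2% for the same shRNA states. Fewer and wider regions follow from the construction of these settings. With looked-up peaks counted within 1 kb, H3K9ac was at 35.7% in A2780 and 11.2% in A2780cis, shMBD3.232 at 41.1% and neither shRNA at 42.5%. With peaks required over 50% of the A2780 bases, H3K9ac was at 15.7% and 3.50%, shMBD3.26 at 28.3%, shMBD3.232 at 26.4%, both at 15.9% and neither at 61.2%. The cause of other changes was not tested. Including chromosome X added 6 regions. Distances to a TSS were not run for lack of an annotation of the build. No paired analysis was possible because each condition has 1 library and no test was made. The lists limit every value to whether and where a peak is listed, since depth and height are unknown.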
